A study of Mus musculus with 2 samples.

Results

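The genes described here are the Hox genes of the Hoxa, Hoxb, Hoxc and Hoxd clusters, measured in 2 clones of mouse mesoangioblasts, D16 and D351. Mesoangioblasts are progenitor cells associated with embryonic vessels that can give rise to mesodermal cell types. Both clones were derived in the same way from C57BL6 embryos of embryonic day 9.5, starting from the dorsal aorta. The aorta was cultured as an explant for 5 days, its cells were plated at limiting dilution on mitomycin-treated embryonic fibroblasts in RPMI with 20% fetal calf serum, and the clones were expanded on gelatin. Total RNA was hybridized to Affymetrix U74A arrays, with 1 array per clone. Each group is therefore a single clone and a single array, and no test between clones was possible.

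Members were all probe sets whose annotated symbol is Hox followed by a cluster letter and a number. There were 43 such probe sets among 12422 that are not controls. Of these, 38 carried the symbol of a single Hox gene and together measured 31 Hox genes, among 8251 genes on the array. A further 3 were annotated to a pair of neighbouring Hox genes, and 2 to Hoxa11os, the antisense transcript of Hoxa11.

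Hox genes encode homeodomain transcription factors that give cells along the body axis their regional identity. They lie in 4 clusters, and genes at the same place in different clusters form numbered paralogue groups. Within a cluster, low-numbered genes are switched on earlier and reach further towards the head, and high-numbered genes come on later and act in the lumbar, sacral and tail regions and in the distal limb. Cultured mesenchymal cells are known to keep much of the Hox pattern of the site they came from. Hox proteins bind DNA with the cofactors Pbx and Meis, Cdx proteins and retinoic acid act on their transcription, and the Polycomb and trithorax complexes maintain their silent and active states.

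The promoters of the Hox genes with the largest ratio in each direction among genes measured in both clones are shown as 250 bases upstream of the annotated start, from RefSeq on GRCm38.p6. Hoxd8 lies on the plus strand at chr2:74704365-74704614, and Hoxa2 on the minus strand at chr6:52164832-52165081. Capitals mark matches, on either strand, to the Pbx-Hox composite site TGATNNAT, the Cdx site TTTATNG and the retinoic acid receptor half-site AGGTCA.
Hoxd8: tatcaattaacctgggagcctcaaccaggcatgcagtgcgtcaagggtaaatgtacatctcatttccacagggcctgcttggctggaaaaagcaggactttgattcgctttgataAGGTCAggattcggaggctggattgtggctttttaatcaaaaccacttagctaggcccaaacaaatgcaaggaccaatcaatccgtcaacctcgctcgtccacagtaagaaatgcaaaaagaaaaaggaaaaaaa
Hoxa2: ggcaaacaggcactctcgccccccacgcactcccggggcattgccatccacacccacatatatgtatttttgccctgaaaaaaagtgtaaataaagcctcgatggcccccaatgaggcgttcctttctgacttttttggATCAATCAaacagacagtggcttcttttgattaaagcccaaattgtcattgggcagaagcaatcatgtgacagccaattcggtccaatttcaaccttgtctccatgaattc
Hoxd8 held 1 half-site, 135 bases before the start, and Hoxa2 held 1 Pbx-Hox match, 111 bases before the start; neither overlapped another of these motifs. Promoters were matched for 20 of the 31 measured Hox genes, not for Hoxb5, Hoxb7 or Hoxc9, and with those of Hoxd3 and Hoxd4 there were 24. TGATNNAT was present in 4 of these 24 (Hoxa2, Hoxb1, Hoxb8 and 1 of the Hoxd11 promoters) and in 7.68% of all 32851 promoters of the same length. For TTTATNG the count was 2 of 24 against 9.81%, and for AGGTCA 6 of 24 against 14%. These are matches of letters, and no binding was measured.

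All levels below are deposited intensities per probe set on a linear scale, brought to the same median in both arrays. Values below a floor of 17.4, the 40th percentile, were treated as not measurable. Where 1 clone lay below the floor the ratio is only a bound ("at least"), and where both did no ratio was taken. Ratios are log2 of D351 over D16, and 2-fold was the size counted as a difference. Probe sets differ in how strongly they bind their target, so levels are compared between clones and never between genes. The only measurable error was the disagreement between probe sets for the same gene. Its SD, in log2 units, was 0.52 over 806 genes. For the 339 of those genes with levels under 100, where most Hox genes lie, it was also 0.52.

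Markers of mesenchymal cells were present in both clones. All 8 mesenchymal and fibroblast genes listed were above the floor in each, including Col1a1 at 1539 in D16 and 3770 in D351. Vim lay close to the floor, at 22.3 and 23.5. Of 8 endothelial genes 3 were above the floor in each clone, of 6 haematopoietic genes 1, of 4 neural genes 3 and of 4 epithelial genes 1. Over all genes the shares were 69% in D16 and 67.9% in D351. The marker genes above the floor were not always the same in both clones. Above the floor in both clones were 2 endothelial, 0 haematopoietic, 3 neural and 1 epithelial gene, and 5198 of all 8251 genes. Some of the marker genes differed. Of the 8 mesenchymal and fibroblast genes 4 passed 2-fold towards D351 and 1, S100a4 (1835 in D16 and 414 in D351), towards D16. Over all genes with a ratio the shares were 10.6% and 8.87%. The endothelial and progenitor marker Cd34 measured 475 in D16 and 6.71 in D351, a bound of at least 27.3-fold towards D16. Towards D351 the bounds were 3.8-fold for Flt1 and 2.12-fold for Cd68, and the neural filament gene Nes differed 3.5-fold. The other probe set of Cd68 and that of Nes were below the floor in both clones. Of 5 smooth muscle genes 4 passed 2-fold towards D351, against 10.6% of all genes with a ratio. The part of these differences in the Hox values was not tested. The fibroblast list cannot tell the clones from feeder cells, whose part in the results was not tested.

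Of the 31 Hox genes, 13 were at or above the floor in D16 and 16 in D351, where the shares over all genes were 69% and 67.9%. In all, 10 were measured in both clones, 6 in D351 alone and 3 in D16 alone, and 12 in neither. At least 2-fold higher in D351 were 5 of the 19 genes with a ratio, Hoxd8, Hoxb5, Hoxb7, Hoxc9 and Hoxa6 (26.3%), against 10.6% of all 6098 genes with a ratio. At least 2-fold higher in D16 was 1 of 19, Hoxa2 (5.26%), against 8.87%. The remaining 13 lay within 2-fold or had a bound below it. Of those 6 calls, 3 rest on genes above the floor in D351 alone, which could have differed in no other direction. Among the 10 Hox genes measured in both clones, 2 passed 2-fold towards D351 and 1 towards D16, against 9.58% and 8.43% of all genes so measured. Their median ratio was -0.18, with 4 higher in D351 and 6 in D16. Over the 19 genes it was 0.03, and for all genes -0.03.

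The Hox probe sets were dim, the brightest reaching 208. Among the 4130 genes no brighter than that, 9.1% passed 2-fold towards D351 and 8.09% towards D16. Above the floor in D351 alone were 6 of 19 Hox genes (Hoxa6, Hoxa7, Hoxb3, Hoxb5, Hoxb9 and Hoxc9), against 9.56% of those dim genes and 6.64% of all. In D16 alone were 3 of 19 (Hoxb1, Hoxc4 and Hoxd10), against 11.8% and 8.12%.

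**Figure D1:**
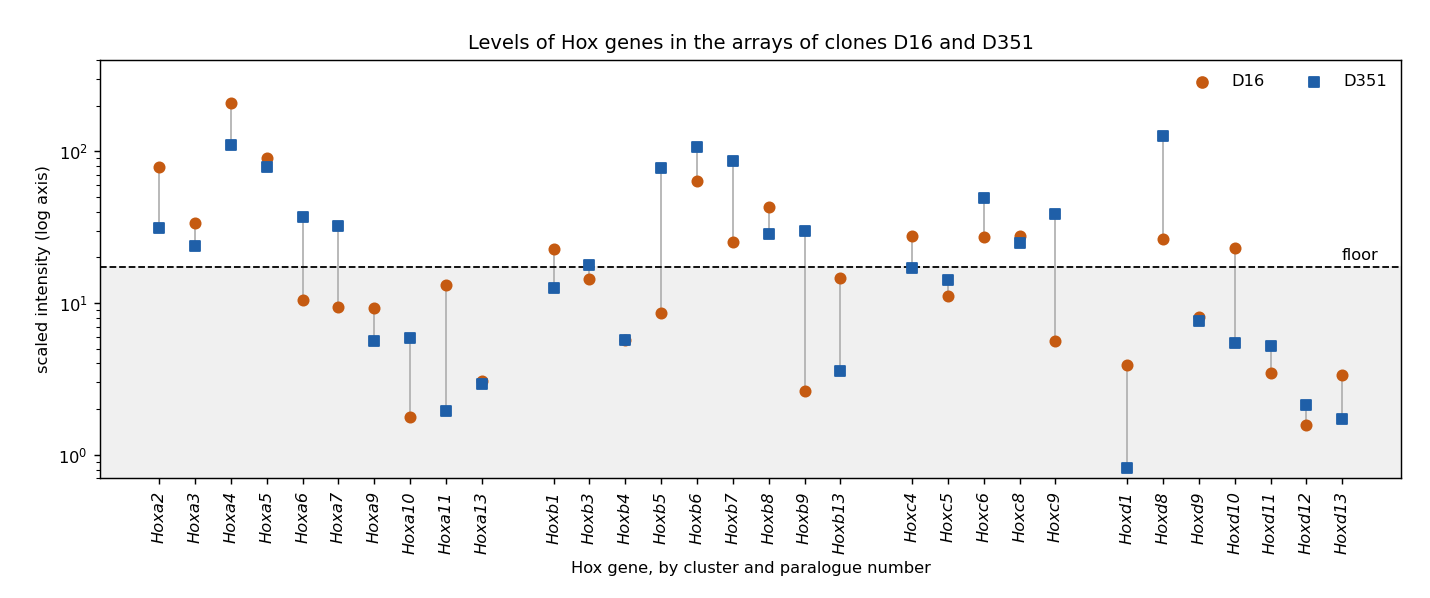
Scaled intensity (log axis) of the 31 Hox genes in D16 (circles) and D351 (squares), 1 array each, ordered by cluster and paralogue number. The dashed line is the floor of 17.4, and the grey area holds values treated as not measurable. Heights can be compared between the clones for a gene but not between genes. In the Hoxa cluster the low-numbered genes have the D16 point on top, and Hoxb5, Hoxb7, Hoxb9, Hoxc9 and Hoxd8 have wide gaps with the D351 point above the floor and on top.

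The genes of the lowest paralogue groups with a ratio tended to be higher in D16, but those measured in both clones were all Hoxa genes. Hoxa2, which patterns the hindbrain and the second pharyngeal arch, measured 78.7 in D16 and 31.0 in D351, 2.54-fold higher in D16 (log2 ratio -1.34). Hoxa3, needed for the thymus and parathyroid, measured 33.4 and 23.7 (log2 ratio -0.50), less than the SD between probe sets. Hoxa4, which acts in the cervical region, measured 208 and 110 by its brightest probe set, of suffix r (designed under relaxed rules), a log2 ratio of -0.92. A second Hoxa4 probe set, without suffix, measured 33.3 in D16 and fell below the floor in D351, at least 1.92-fold higher in D16. The other 2 Hoxa4 probe sets were below the floor in both clones, so both Hoxa4 probe sets with a signal were higher in D16.

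Hoxb1, which specifies a hindbrain segment, measured 22.6 in D16 and 12.6 in D351, with only D16 above the floor. Hoxb3 measured 14.4 and 17.8, with D351 just above it. Hoxb4, known for its role in blood stem cells, was at 5.70 in both clones, below the floor. Hoxc4 measured 27.6 in D16 and 17 in D351, the latter just below the floor, a bound of at least 1.59-fold. Hoxd1 was below the floor in both by each of its probe sets. The probe sets shared by Hoxd3 and Hoxd4 went opposite ways. The first of them measured 23.9 in D16 and 44.6 in D351, and the other 25.6 and 10.9, so these genes are given no direction.

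The Hox genes with the largest ratios towards D351 belonged to groups 5 to 9. Hoxd8, a trunk gene of the Hoxd cluster, measured 26.3 in D16 and 126 in D351, 4.77-fold higher in D351. Its second probe set measured 5.80 in D16, below the floor, and 145 in D351, at least 8.32-fold higher. Both Hoxd8 probe sets therefore placed D351 higher, and the difference exceeded the spread between probe sets within this pair of arrays. Hoxb5, active in cervical and upper thoracic tissue, measured 8.65 in D16, below the floor, and 77.3 in D351, at least 4.44-fold higher. Hoxb7, expressed in trunk mesoderm and the kidney ducts, measured 25.2 and 86.2, 3.42-fold higher in D351. A probe set shared with Hoxb8, at 35.3 and 35.6, did not show this difference.

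The other genes of this stretch of the Hoxb cluster lay within 2-fold or had a bound below it. Hoxb6, a gene of the lateral plate mesoderm, measured 63.4 in D16 and 106 in D351 (log2 ratio 0.74). Hoxb9, which acts in the thoracic region, measured 2.65, below the floor, and 29.6, at least 1.7-fold higher in D351. Hoxb8 stood apart from both. Its brightest probe set measured 43.0 in D16 and 28.7 in D351 (log2 ratio -0.58), and another was below the floor in both clones. The probe set shared with Hoxb7 measured 35.3 and 35.6. The Hoxb8 probe set with a signal also carries the suffix r.

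In the Hoxa cluster the direction changed within the central genes. Hoxa5, needed for lung and cervical skeleton, measured 89.9 in D16 and 78.4 in D351, a log2 ratio of -0.20 that lies within the probe set spread. Hoxa6 measured 10.4, below the floor, and 36.6 in D351, at least 2.11-fold higher, by a probe set of suffix r, but its other probe set was below the floor in both. Hoxa7, a trunk gene, measured 9.44, below the floor, and 32.1 in D351, at least 1.85-fold higher. Thus Hoxa2 to Hoxa5 had negative ratios and Hoxa6 and Hoxa7 positive ones, which are bounds.

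The Hoxc genes gave a similar mixture. Hoxc6 measured 27.3 in D16 and 49.0 in D351 (log2 ratio 0.84), and Hoxc8, which shapes the thoracic skeleton, 27.8 and 24.7 (log2 ratio -0.17). Hoxc9, a thoracic gene, measured 5.60, below the floor, and 38.7 in D351, at least 2.22-fold higher, by a single probe set of suffix f that can match other genes. Hoxc5 was below the floor in both clones, at 11.2 and 14.2. Of this cluster only Hoxc6 and Hoxc8 were measured in both clones.

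**Figure D2:**
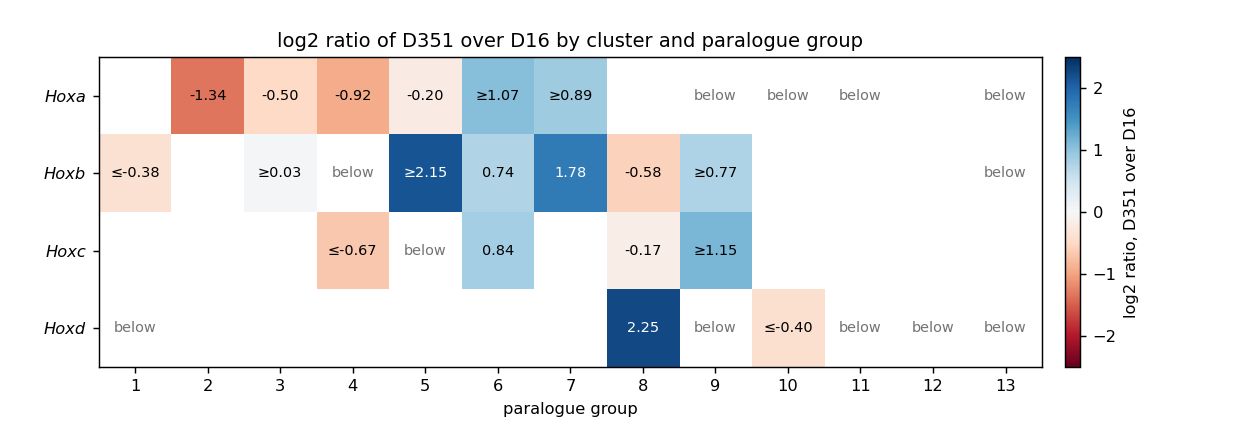
Grid of clusters (rows) and paralogue groups (columns), coloured by the log2 ratio of D351 over D16 of each gene's brightest probe set, blue for higher in D351 and red for higher in D16. The signs ≥ and ≤ mark bounds where 1 clone is below the floor, and "below" marks genes below it in both. Blank cells hold no value. The red cells lie mostly in groups 1 to 5 and the blue cells in groups 5 to 9.

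The genes of groups 10 to 13, which act at the caudal end of the axis and in the distal limb, were almost all at background. Of 8 measured genes, 1 was at or above the floor in either clone, against 73.9% of all genes. That gene was Hoxd10, which acts in the hindlimb region, at 22.9 in D16 and 5.49 in D351. Hoxa11, needed for the forearm and the uterus, measured 13.2 and 1.93, and Hoxb13 14.6 and 3.56, all below the floor. Hoxa10, Hoxa13, Hoxd11, Hoxd12 and Hoxd13 ranged from 1.57 to 5.90 over both clones. Both Hoxa11os probe sets were below the floor as well, with levels from 1.53 to 12.2. In group 9, Hoxa9 and Hoxd9 were below the floor in both clones.

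Set out by paralogue group, most ratios were negative in groups 1 to 4 and positive in groups 5 to 9. Part of this came from genes above the floor in 1 clone alone. Hoxd10, the only gene of groups 10 to 13 with a ratio, was above the floor in D16 alone. In groups 1 to 4, all 3 genes measured in both clones (Hoxa2, Hoxa3 and Hoxa4) were higher in D16. All lie in the Hoxa cluster, so for them paralogue group cannot be told apart from cluster. In groups 5 to 9, 4 of the 7 so measured were higher in D351, 2 of them at least 2-fold, and 3 were higher in D16, with a median of 0.74. Over all genes measured in both, 49% were higher in D351. A further 5 genes of groups 5 to 9 were above the floor in D351 alone and 0 in D16 alone, and of groups 1 to 4 there were 1 and 2, so the direction of these was fixed by the floor. With them the medians were 0.86 (12 of 15 genes on the array) and -0.58 (6 of 8), and 9 of 12 and 1 of 6 genes were higher in D351, against 48.4% of all genes and 46.7% of those no brighter than the brightest Hox probe set. The boundary was drawn after the values were seen, so these values are a description with no test. Under the usual division, the median was -0.44 in groups 1 to 3 (4 genes), 0.79 in groups 4 to 8 (12 genes) and 0.77 in groups 9 to 13 (3 genes). Of these genes 2, 8 and 0 were measured in both clones, and the floor fixed the direction of the others.

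Single paralogue groups held few genes measured in both clones. In group 6 these were Hoxb6 and Hoxc6 and in group 7 Hoxb7, all higher in D351, while group 9 had none. Group 8 was split, with Hoxd8 far higher in D351 and Hoxb8 and Hoxc8 slightly higher in D16. Without probe sets of suffix f, s, r, i or g, the medians were 0.84 in groups 5 to 9 (9 genes with a ratio) and -0.58 in groups 1 to 4 (6 genes). Then 3 Hox genes in place of 5 passed 2-fold towards D351, of 16 with a ratio, against 10.9% of all genes.

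**Figure D3:**
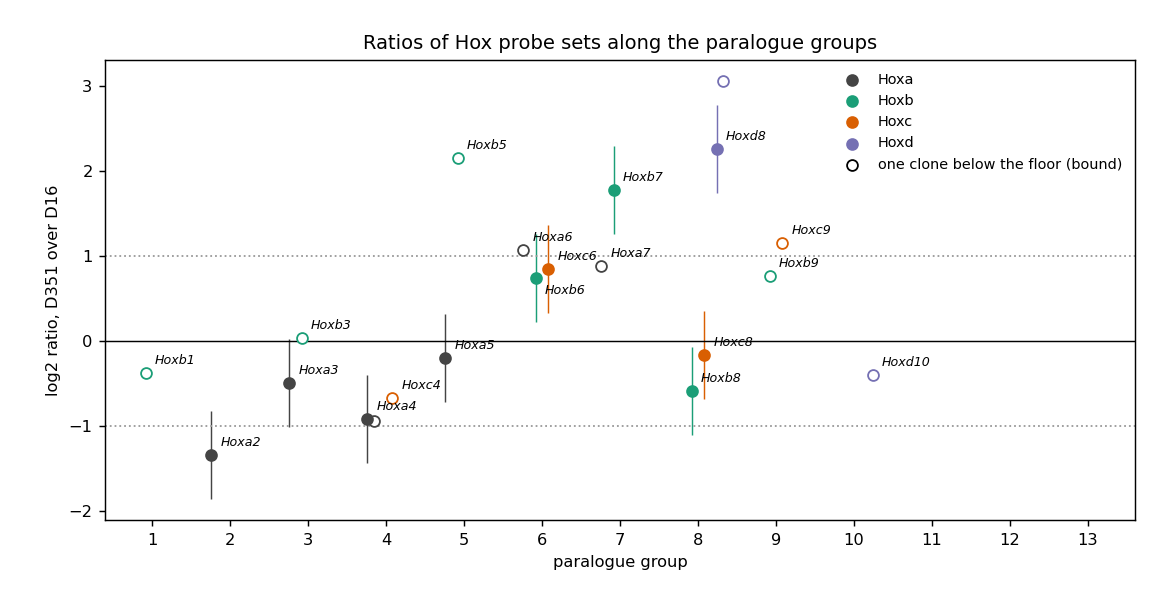
Log2 ratio of D351 over D16 for each probe set of a single Hox gene above the floor in at least 1 clone, against paralogue group, coloured by cluster. Filled points were measured in both clones, with bars of 1 SD between probe sets of a gene (0.52), and open points are bounds without bars. Dotted lines mark 2-fold. Points of groups 1 to 4 lie below 0 apart from Hoxb3 (0.03), and 9 of the 12 genes of groups 5 to 9 lie above it, 5 of them bounds that could lie on no other side.

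The direction of several values depended on how the arrays were scaled. With scaling on the hybridization controls, RNAs added in known amount, the median ratio of all genes rose from -0.03 to 0.34, and of all genes past 2-fold the share with the higher level in D351 was 82.9%, against 54.4% otherwise. Under that scaling 8 Hox genes passed 2-fold towards D351 and 0 towards D16, against 19.9% and 4.1% of all genes with a ratio. Hoxa5 (0.20) and Hoxc8 (0.22) became positive, and the Hoxa median turned from -0.35 to 0.05. The medians became -0.25 in groups 1 to 4 and 1.19 in groups 5 to 9, both raised along with all genes. Raising the floor to the 60th percentile left 1 Hox gene at least 2-fold higher in D351, Hoxd8 (log2 ratio 1.21). Of all genes with a ratio, 8.38% then passed 2-fold towards D351.

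By cluster, the median ratio was -0.35 for Hoxa (6 genes with a ratio), 0.74 for Hoxb (7 genes), 0.34 for Hoxc (4 genes; -0.17 without suffixed probe sets) and 0.93 for Hoxd (2 genes; -0.10 with the floor at the 25th percentile). The clusters lie on chromosomes 6, 11, 15 and 2, and the medians of the other genes on those chromosomes were 0.13, 0.12, -0.06 and -0.05. The genes next to each cluster were examined in the same way, with the 5 nearest on each side that have a probe set. Of the 31 neighbours with a ratio, 5 passed 2-fold towards D351 and 0 towards D16, against 10.6% and 8.87% of all genes with a ratio.

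Around the Hoxb cluster, all 8 neighbours with a ratio were higher in D351, with a median of 0.66. The share was 48.4% over all genes and 57.7% over the other genes on chromosome 11. Of the 8 neighbours 6 were measured in both clones. The other 2, Cbx1 and Atp5g1, were above the floor in D351 alone, which fixed their direction. The heterochromatin protein gene Cbx1 was at 14.7 in D16, below the floor, and 59.5 in D351. The coatomer gene Copz2 was at 148 and 489. With 20 neighbours on each side, 17 of 28 were higher in D351 and the median was 0.23. Among the Hoxb genes themselves 5 of 7 were higher in D351, 3 of them above the floor there alone. Whether the Hoxb genes and their neighbours share a cause was not tested.

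Around the other clusters the neighbours were mixed. Their medians were 0.22 for Hoxa (7 genes; -0.12 without suffixed probe sets and -0.07 with the mean of all probe sets). For Hoxc and Hoxd (8 genes each) they were -0.31 and -0.05, and 0.09 and 0.44 with scaling on the hybridization controls. At least 2-fold higher in D351 were Hibadh, a valine breakdown enzyme gene beside Hoxa that lies at the 2-fold limit (125 and 250), Prr13 beside Hoxc (144 and 503) and the chaperone gene Fkbp7 beside Hoxd (101 and 243). The homeobox genes Evx1 and Evx2, which flank the caudal ends of Hoxa and Hoxd, were at 3.54 and 6.82 and at 19.4 and 7.73, so only Evx2 in D16 was above the floor. Relative to the median of its chromosome, Hoxb had a median of 0.63 and Hoxa of -0.48.

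**Figure D4:**
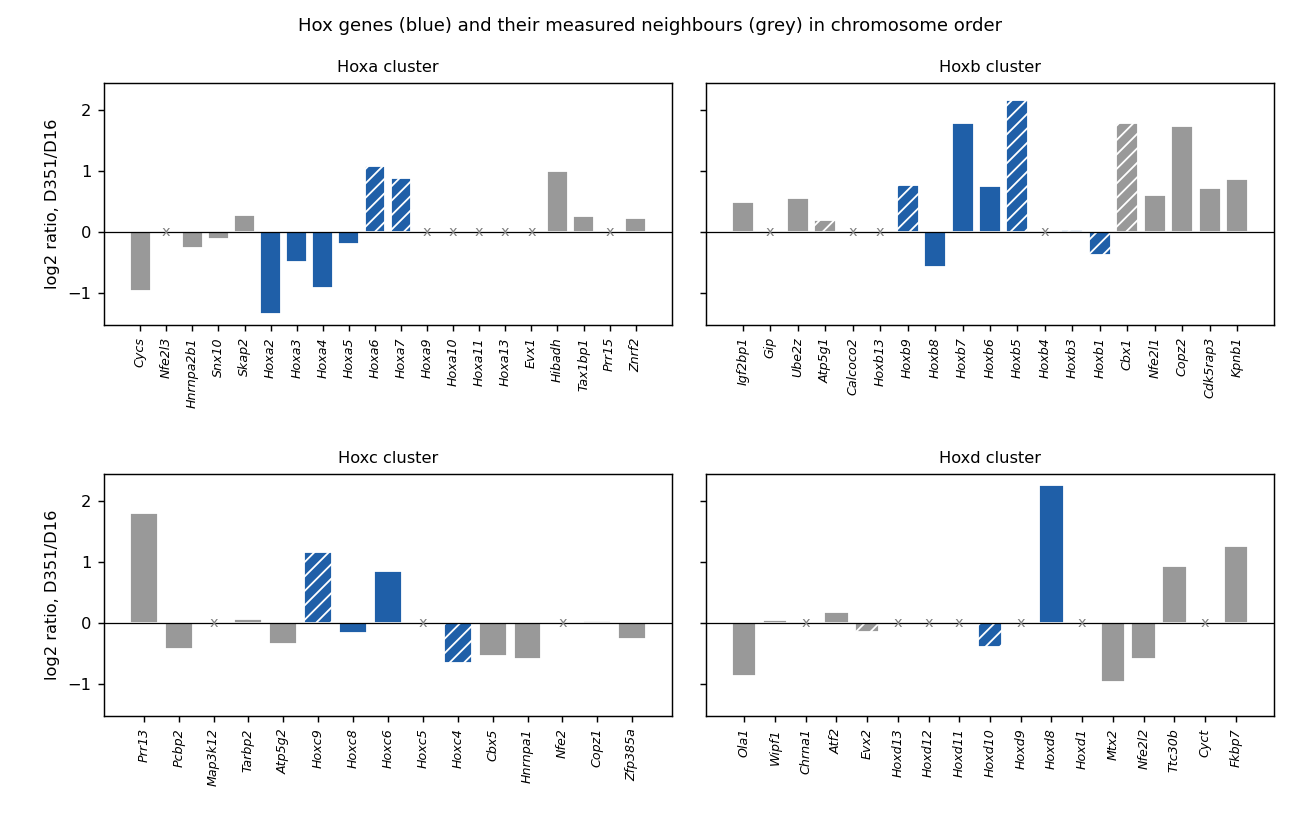
Log2 ratio of D351 over D16 of the Hox genes (blue) and of the 5 nearest genes with a probe set on each side (grey), in chromosome order. Hatched bars are bounds, and a cross marks a gene below the floor in both clones. All 8 grey bars around Hoxb point up, 2 of them bounds, while those around the other clusters point both ways.

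The Hox cofactors lay within 2-fold between the clones, apart from Meis3. Above the floor were 5 of the 6 cofactor genes in D16 and all 6 in D351. Their median ratio was 0.24, and 1 of 6 passed 2-fold, against 10.6% of all genes towards D351. Pbx3, a partner that raises the specificity of Hox binding, measured 136 in D16 and 149 in D351, while its other probe sets had ratios of -0.18 and -0.26. Meis1 and Meis2, which bind with Pbx and Hox, had log2 ratios of 0.24 each. Meis3, a relative of both, was at 2.26 in D16, below the floor, and 35.4 in D351, at least 2.04-fold higher. Pbx2 and Pknox1 lay within the probe set spread.

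Among Polycomb and trithorax genes, 1 of 22 with a ratio passed 2-fold in each direction (4.55%, below the 10.6% and 8.87% of all genes), and the median was -0.17 (0.22 with scaling on the hybridization controls). Kmt2a, the methyltransferase gene that maintains active Hox genes, measured 89.4 and 230 by its brightest probe set, 2.57-fold higher in D351. Its other probe set measured 71.7 and 70.0, so the probe sets disagree. Gmnn, a replication inhibitor that also binds Hox and Polycomb proteins, was 3.06-fold higher in D16 (84.7 and 27.7). Ezh2, the Polycomb methyltransferase gene, measured 212 and 108 (log2 ratio -0.97) and was picked after its values were seen.

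Retinoid pathway genes were mostly at background, with 10 of 15 below the floor in both clones, against 2153 of all 8251 genes. Of the 5 with a ratio, 1 passed 2-fold towards D351 and 0 towards D16, against 10.6% and 8.87% of all genes with a ratio. Aldh1a1, an enzyme gene of retinoic acid synthesis, measured 15.5, below the floor, and 87.9 in D351, at least 5.05-fold higher. A second Aldh1a1 probe set measured 19.5 and 14.9, which is the opposite order. The embryonic synthesis gene Aldh1a2 and the degradation gene Cyp26a1 were below the floor in both. None of the others passed 2-fold by its brightest probe set, and the median was -0.13 (0.26 with scaling on the hybridization controls). A second probe set of Rxra did, at 64.2 in D16 and 30.4 in D351 (log2 ratio -1.08).

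Of the axial regulators and mesodermal transcription factors, 18 of 29 had a ratio, 1 passed 2-fold towards D351 (5.56%) and 2 towards D16 (11.1%), near the shares of all genes (10.6% and 8.87%), and the median was -0.20 (0.05 with scaling on the hybridization controls, 0.04 with the floor at the 25th percentile). Nr2f1, an orphan nuclear receptor gene, measured 224 in D16 and 87 in D351, 2.57-fold higher in D16. Gata4, a cardiac and mesodermal factor gene, was 2.43-fold higher in D16 (68.5 and 28.2). Its relative Gata6 was at 9.04 in D16, below the floor, and 50.3 in D351, at least 2.89-fold higher, with its other probe sets below the floor. Gdf11, a signal that promotes caudal Hox expression, was below the floor in both clones.

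Homeobox genes outside the clusters differed in both directions. Of 22 with a ratio, 5 passed 2-fold in each direction (22.7%, against 10.6% and 8.87% of all genes), and the median was 0.16. Dlx1 and Dlx2, a linked pair of factors of the forebrain and the pharyngeal arches, were both higher in D16. Dlx1 measured 137 in D16 and 4.58 in D351, at least 7.88-fold, and Dlx2 124 and 19.1, 6.49-fold, with the D351 level close to the floor. Msx2, a target of BMP signals, was at 2.85 and 131, at least 7.54-fold higher in D351. En1, a marker of the mid-hindbrain and of dermal precursors, was at 16.3 and 60.9, at least 3.50-fold higher in D351.

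**Figure D5:**
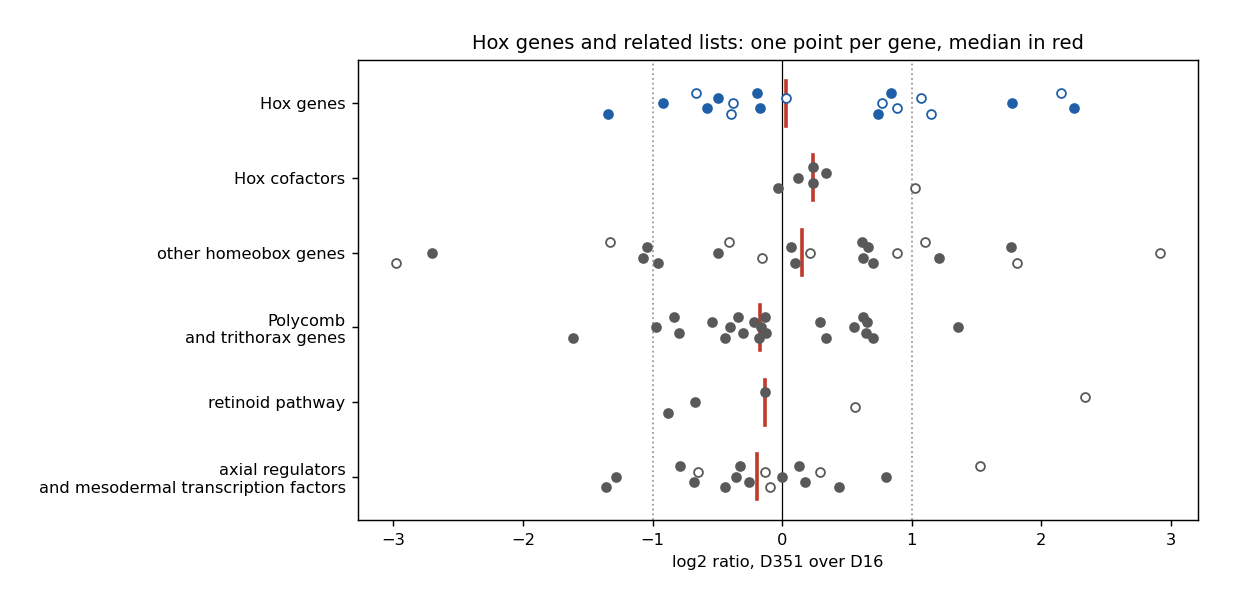
Log2 ratio of D351 over D16 for the Hox genes and the 5 related lists, with 1 point per gene above the floor in at least 1 clone. Open points are bounds, red bars medians and dotted lines 2-fold. Cofactors cluster near 0 apart from Meis3, while Hox genes and other homeobox genes spread past 2-fold on both sides.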

How the data were processed

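The authors deposited 1 linear intensity for each probe set. The software, its scaling and its background method are not stated in the labels. The 2% trimmed mean was 100.1 in both arrays. Gene names came from GEO's annotation of version 2 of this array, although the labels say U74A; symbols were updated by Entrez number to RefSeq GRCm38.p6 (10817 of 10833 probe sets with a single symbol; 396 had several and 1193 none). The 66 controls were left out. The arrays were brought to a common log2 median over probe sets above the floor in each (factors 0.983 and 1.02). For a gene with several probe sets the one brightest on average was used. No test or standard error can be had from 1 array per clone, and the number of arrays limits the precision.

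The members, gene lists and rules were chosen with earlier results of these data known. Named genes were every Hox gene, of each related list the 4 largest ratios past 2-fold (else the 2 brightest genes) and neighbours at least 2-fold apart; marker lists are given mainly as counts, and further genes were named for their role. Alternatives covered scaling (as deposited, quantile, loess, hybridization controls), floor, probe set rule and size threshold; ratios relative to the chromosome median, 20 neighbours and the split at group 4 were chosen after seeing the data. The functions were tested on simulated data. Python 3.11.15, numpy 2.4.6, pandas 2.3.3, scipy 1.17.1, statsmodels 0.14.6 and matplotlib 3.10.9 were used.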

Additional observations from a re-analysis of the deposited data

How the results depend on the processing

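No paired analysis was possible because there is 1 array per clone, which also leaves no replicate to drop. The main values were 5 Hox genes at least 2-fold higher in D351, 1 in D16, 13 above the floor in D16 and 16 in D351. At least 2-fold higher in D351 were 8 with scaling on the hybridization controls, against 19.9% of all genes with a ratio. With the floor at the 60th percentile it was 1 (8.38%), and without suffixed probe sets 3 (10.9%). At thresholds of 1.5-fold, 3-fold and 4-fold there were 9, 3 and 2, against 21.1%, 4.15% and 2.26%. At least 2-fold higher in D16 were 0 with scaling on the hybridization controls (4.1% of all genes) or the floor at the 60th percentile (8.13%). There were 3 with the floor at the 25th percentile (12.1%) and 2 relative to the chromosome median (7.94%). The counts were 3 at 1.5-fold (21%), 0 at 3-fold (2.61%) and 0 at 4-fold (1.3%). With the floor at the 25th percentile, 22 genes were above it in D16 and 20 in D351. At the 60th percentile the counts were 4 and 6, and without suffixed probe sets 12 and 12. Which clone had more Hox genes above the floor thus depended on the floor and the probe set rule. The Hoxd median of 0.93, over 2 genes, was 1.53 with scaling on the hybridization controls and -0.10 with the floor at the 25th percentile, which lets in more genes. Of 175 values of single Hox genes, 161 moved by less than the SD between probe sets, 14 by more, and 0 of those past 2-fold changed sign. Hoxd8 rose to 3.10 under loess and 3.26 with the hybridization controls, where its other probe set became the brighter. The median over all Hox genes with a ratio, 0.03, was -0.14 with the floor at the 25th percentile, -0.07 without suffixed probe sets and -0.08 relative to the chromosome median. The median of groups 1 to 4 was negative and that of groups 5 to 9 positive under each scaling, floor and probe set rule run. These settings reprocess the same 2 arrays, and the split was drawn after the values were seen, so the shared sign is no test. With the floor at the 60th percentile, only Hoxa2 (-0.59) and Hoxa4 (-0.98) of groups 1 to 4 kept a ratio. Low signal left 12 of 31 genes below the floor in both clones.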

Other observations

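Homeobox genes named like Hox genes but lying outside the clusters were looked at after their values were seen. Of these, Shox2 is also among the 5 homeobox genes outside the clusters counted above as past 2-fold towards D351. Rhox5, a reproductive homeobox gene of the X chromosome, measured 130 in D16 and 5.19 in D351, below the floor, at least 7.48-fold higher in D16. Its relative Rhox6 was below the floor in both clones. Shox2, which patterns the proximal limb and the sinoatrial node, measured 93.6 in D16 and 318 in D351, 3.4-fold higher in D351, and its second probe set, at 3.44 and 37.8, was at least 2.18-fold higher there. Both Shox2 probe sets carry the suffix s and can match related genes. Phox2a, a gene of autonomic neurons, was below the floor in both.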
